A study of Mus musculus with 8 samples.

Results

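The genes described here are 50 genes of the unfolded protein response and of its ATF4 branch, chosen by symbol from a fixed list and all found among the 16333 genes of the deposited tables. The RNA came from isolated pancreatic islets of mice, the endocrine clusters that contain the insulin-secreting beta cells. The KO mice, of the strain labelled Agouti/C57BL6, had lost NFATc2, a transcription factor switched on by calcineurin, after tamoxifen given in adult life, in cells labelled INS-1 expressing. The wild-type (WT) mice carried the same strain label and had also received tamoxifen, with no knockout as a result. Islets rested overnight in 5.5 mM glucose and were then either exposed for 2 h to IFNγ (50 ng/mL), TNFα (10 ng/mL) and IL1β (5 ng/mL) in 11 mM glucose or left untreated for the same time. The 11 mM glucose is given for the cytokine cultures only, and the glucose of the untreated cultures over the 2 h is not stated. Effects of the cytokines and of any change in glucose therefore cannot be told apart. There were 2 KO and 2 WT mice and 8 libraries, 2 for each combination of genotype and treatment, and the age of the mice is not given. Because the knockout was aimed at insulin-expressing cells and whole islets were sequenced, other islet cells with an intact gene contribute to every value. The deposited tables call the reference genotype Mut, a name no label uses. It is taken here for wild type, the only genotype left.

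Beta cells fold very large amounts of proinsulin in the endoplasmic reticulum (ER), and the unfolded protein response adjusts folding capacity to that load. The sensor IRE1α splices the mRNA of XBP1, the sensor ATF6 is cut to release a transcription factor, and the sensor PERK phosphorylates the translation factor eIF2α. Phosphorylated eIF2α slows protein synthesis in general but favours translation of ATF4, which switches on amino acid and serine synthesis genes and CHOP. XBP1 and ATF6 switch on chaperones and the degradation machinery called ERAD. Splicing of Xbp1, phosphorylation and translation are not visible in gene-level read counts, so only the transcript levels of these genes are described.

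Factors of this response read short promoter motifs, which are shown here for the genes on which the results below turn. ATF6 and XBP1 with the factor NF-Y bind the ER stress response element, searched as CCAAT, 9 bases of any kind and CCACG (ERSE) and as ATTGG, 1 base of any kind and CCACG (ERSE-II), and ATF4 with C/EBP factors binds the C/EBP-ATF element, searched as TGATGNAA. Both strands were searched from 250 bases before to 50 bases after each RefSeq gene start (build GRCm38.p6). Each line below shows the strand on which its gene is transcribed, 5′ to 3′, with the matched motif in capitals. A motif on the other strand therefore appears as its reverse complement. The first group holds genes of ERAD and folding, with Hspa5 as the best-studied example of an ERSE. In Creld2 and Derl3 the ERSE lies on the other strand. Herpud1 carries a C/EBP-ATF element on the other strand and an ERSE-II further downstream, and the motifs in the windows shown do not overlap.
Syvn1 at chr19:6046512-6046570, plus strand: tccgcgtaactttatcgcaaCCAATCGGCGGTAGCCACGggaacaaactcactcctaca
Creld2 at chr15:88819500-88819558, plus strand: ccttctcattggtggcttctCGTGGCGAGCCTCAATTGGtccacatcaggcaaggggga
Derl3 at chr10:75893222-75893280, plus strand: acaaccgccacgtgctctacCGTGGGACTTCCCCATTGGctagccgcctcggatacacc
Herpud1 at chr8:94386297-94386407, plus strand: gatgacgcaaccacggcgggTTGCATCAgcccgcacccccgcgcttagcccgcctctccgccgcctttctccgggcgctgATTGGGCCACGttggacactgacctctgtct
Hspa5 at chr2:34772005-34772063, plus strand: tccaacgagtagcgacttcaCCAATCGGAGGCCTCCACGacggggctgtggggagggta
The second group holds genes of the ATF4 branch. The motif of Chac1 lies on the other strand.
Chac1 at chr2:119351029-119351076, plus strand: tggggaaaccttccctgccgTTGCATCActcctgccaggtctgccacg
Asns at chr6:7693210-7693252, minus strand: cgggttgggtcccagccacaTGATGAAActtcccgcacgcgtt

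Promoters were matched for 44 of the 50 genes and not for Atf6, Ppp1r15b, Hspa13, Hyou1, Manf and Derl1. An ERSE was present in 10 of the 44 (Hspa5, Hsp90b1, Dnajc3, Pdia6, Calr, Canx, Creld2, Syvn1, Derl3 and Ero1lb) and in 0.119% of all 32851 promoters of the table. ERSE-II was present in 2 of the 44 (Dnajb11 and Herpud1) and in 0.0365% of all promoters. A C/EBP-ATF element was present in 7 of the 44 (Atf3, Trib3, Chac1, Asns, Nupr1, Vldlr and Herpud1) and in 3.97% of all promoters. The motif TGACGTGG, called the unfolded protein response element, was present in 0 of the 44 and in 0.676% of all promoters. These matches describe the letters only.

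The deposited tables hold group means, from which whole reads per library were recovered for 16319 of the 16333 genes and for all 50 listed genes. Over the recovered genes the libraries held 14679059 to 27063111 reads. Ins1, Ins2, Iapp and Gcg are not among the recovered genes, so these totals leave them out. Values below are reads divided by the size factor of each library (normalized reads). Genes of the Y chromosome showed 1 female and 1 male mouse in each genotype, so the treated and untreated cultures of a mouse can be linked, and each pair of values below gives the female first. The KO female library with cytokines held 46.9 normalized reads over 4 Y-linked genes, against 0 to 4 in the other female libraries and 8614 to 9879 in male libraries. Nfatc2 had 1167 and 842 normalized reads in untreated KO islets and 1557 and 1270 in untreated WT islets. With cytokines it had 987 and 899 in KO islets and 1646 and 1144 in WT islets. KO values lay below WT values under both treatments, and the differences of -0.49 (SE 0.23, FDR 0.903) and -0.56 (SE 0.24, FDR 0.474) on the log2 scale did not pass in the authors' deposited tables. The labels do not say which exons were deleted.

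Markers of other cells varied between libraries. Counts per 1000000 normalized reads of the recovered genes (CPM) were summed over 18 acinar genes. The sums were 8011 and 1474 in KO islets with cytokines and 4700 and 2061 in untreated KO islets. In WT islets they were 1950 and 444 with cytokines and 4099 and 615 untreated. Stromal genes (10 measured) gave 634 and 335 CPM in untreated KO islets and 170 and 154 in untreated WT islets, and 819 and 307 in KO islets with cytokines and 689 and 189 in WT islets with cytokines. The 4 recovered of 8 lymphocyte genes gave 17 to 65.3 in KO islets and 7.97 to 10.6 in WT islets. The 10 endothelial genes gave 270 to 361 in KO islets and 458 to 614 in WT islets. The 10 macrophage genes gave 158 to 194 in KO islets and 103 to 139 in WT islets. The 6 beta-cell genes with recovered reads gave 3666 to 3864 in KO islets and 3224 to 3526 in WT islets, and Ins2 itself had group means of 880435 to 1039157 normalized reads in the authors' deposited tables. In whole islets, a lower share of the cells that make a transcript and less of it per cell cannot be told apart.

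Between KO and WT islets without treatment, the ATF4 branch was where the listed genes differed most. Of the 50 genes 1, Chac1, was lower in KO islets at an FDR below 0.05 in the authors' deposited table, where 0.41% of all genes were called in either direction and 0.0551% lower. Negative values were given for 37 of the 50 genes, with a median of -0.106 on the log2 scale, against 51% of all genes and a median of -0.004. At an unadjusted p below 0.05 stood 6 of the 50 genes, Chac1, Atf3, Trib3, Asns, Atf4 and Psat1, against 4.89% of all genes in the authors' deposited table. With cytokines, 0 of the 50 were called between KO and WT islets, against 0.998% of all genes, and 2, Chac1 and Atf3, had an unadjusted p below 0.05, against 5.88% of all genes. There 23 of the 50 had negative values, with a median of 0.01. That count rested on the mice included, with 15 without the KO female, 41 without the KO male, 37 without the WT female and 17 without the WT male in limma fits of the recovered reads. In a block fit by sex, limma called 0 of the 50 untreated, against 2.1% of all genes, and 1 with cytokines, Derl3, which was higher, against 3.76% in either direction and 2.49% higher. The cultures of 1 mouse enter that fit as if independent, so its p-values are too small for a genotype difference. How the authors' model treats the 2 cultures of a mouse is not known here. The same limit may therefore hold for the deposited p-values, that of Chac1 included.

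No listed gene passed for the cytokine response within a genotype in the authors' test. The authors called 0 of the 50 genes in KO islets (0.0429% of all genes) and 0 in WT islets (0.0122% of all genes). At an unadjusted p below 0.05 stood 0 of the 50 in KO islets (1.02% of all genes) and 3, Syvn1, Herpud1 and Creld2, in WT islets (0.918% of all genes). In KO islets 21 of the 50 had negative values, with a median of 0.011, against 49.7% of all genes. In WT islets 40 of the 50 had negative values, with a median of -0.108, against 49.1% of all genes and a median of 0.003. The same untreated WT libraries are the reference for untreated KO islets above, so this count and that one are not independent. The pattern in WT islets ran through chaperones, folding enzymes and ERAD, and was stronger in the female mouse, where 39 of the 50 were lower with cytokines (51.1% of all measured genes), than in the male, where 33 were (47.7%). In the KO female 24 of the 50 were lower (48.5%) and in the KO male 23 (51.8%). Of the 18 acinar genes, 17 had negative responses in WT islets (median -1.01) and 2 in KO islets (median 0.54) in the authors' deposited tables. Of the 9 beta-cell genes, 9 were negative in WT islets (median -0.1) and 6 in KO islets (median -0.02). In WT islets Ins2 had group means of 880435 normalized reads with cytokines and 1039157 untreated. In KO islets the Ins2 means were 1009372 and 994393. The 10 endothelial, 10 stromal and 10 macrophage genes were all positive in WT islets. The part of these cells in the counts of the 50 genes was not tested. Blocking on the mouse, limma called 0 of the 50 in KO islets (0.123% of all genes) and 1 in WT islets, Syvn1, which fell (0.153% of all genes in either direction, 0.0306% lower).

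**Figure D1:**
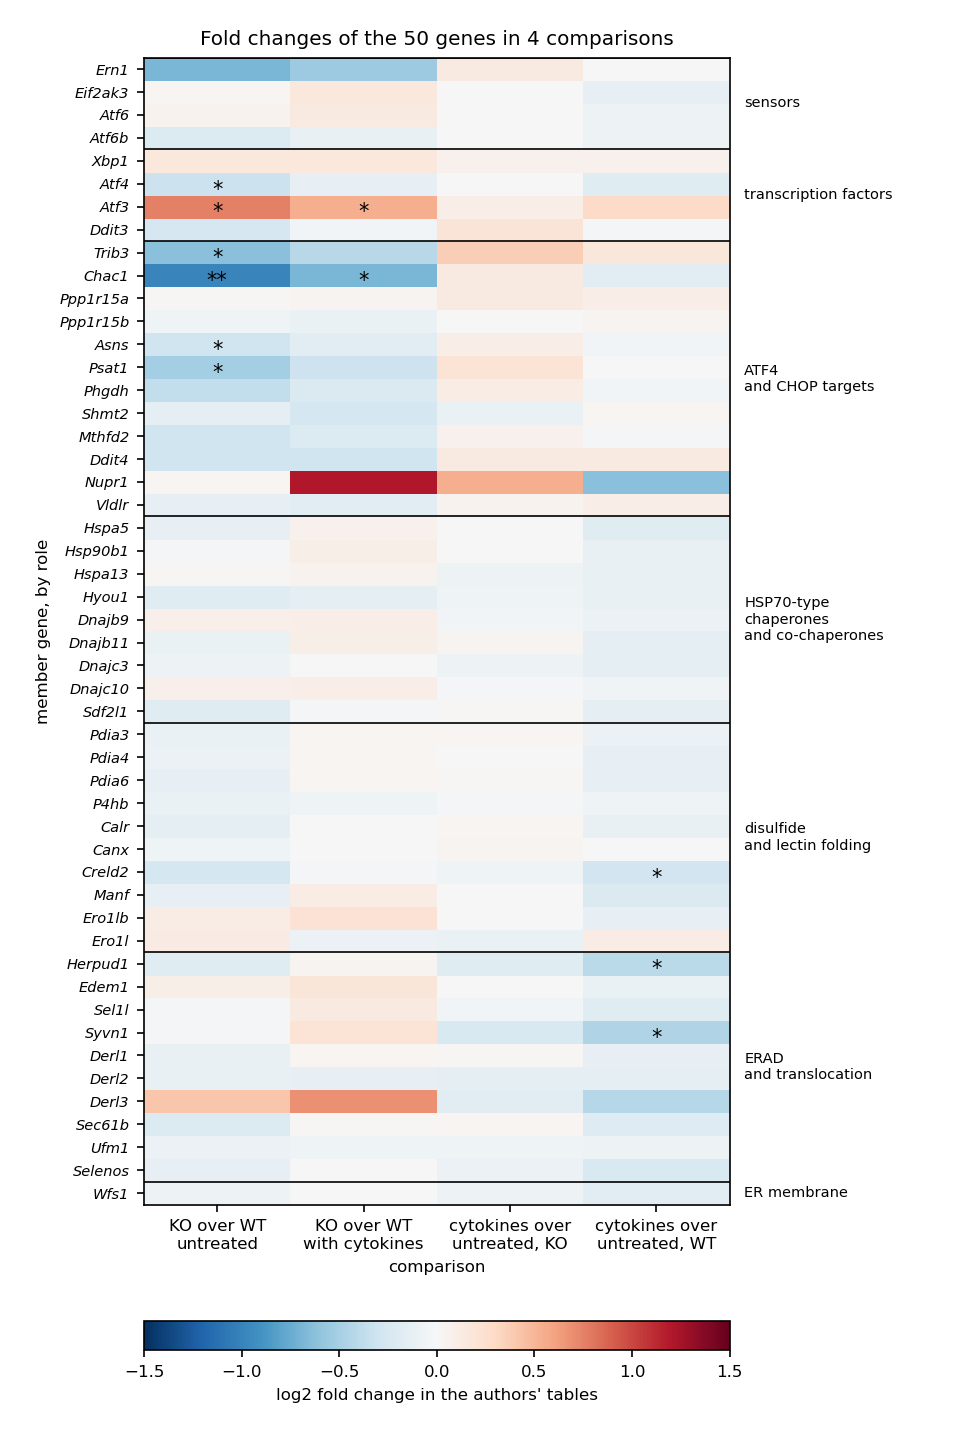
Log2 fold change (colour) of each of the 50 genes, by role (rows), in 4 comparisons (columns) of the authors' deposited tables; 1 asterisk marks an unadjusted p below 0.05 and 2 mark an FDR below 0.05. Blue runs through most ATF4 and CHOP targets in the first 2 columns and through chaperones, folding enzymes and ERAD genes in the last, and Chac1 untreated is the call.

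Of the sensor transcripts, those of PERK and ATF6 differed little between groups. Eif2ak3, which encodes PERK, had 3285 and 3689 normalized reads in untreated KO islets and 3377 and 3457 in untreated WT islets. With cytokines it had 3380 and 3630 in KO islets and 3086 and 3179 in WT islets. The treated KO values lay above the treated WT values, while the untreated groups overlapped. In the authors' deposited tables the difference of Eif2ak3 between KO and WT was 0.03 untreated (SE 0.11). With cytokines it was 0.16 (SE 0.11, p 0.154), and neither passed. Atf6, the sensor that is cut to form a transcription factor, had 6553 and 8118 normalized reads in untreated KO islets and 6719 and 7451 in untreated WT islets. With cytokines Atf6 had 6540 and 8099 in KO islets and 5961 and 7418 in WT islets, so the genotypes overlapped under both treatments. Its relative Atf6b had 1289 to 1416 normalized reads in the 4 KO libraries and 1305 to 1628 in the 4 WT libraries.

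Ern1, the gene of IRE1α, differed by mouse more than by any treatment. It had 10506 and 13735 normalized reads in untreated KO islets and 12969 and 25912 in untreated WT islets. With cytokines the values were 10716 and 15756 in KO islets and 12366 and 26350 in WT islets. The WT male stood far above the other 3 mice in both cultures. The genotypes overlapped under both treatments, since the WT female lay below the KO male. Within each sex the KO mouse lay below the WT mouse under both treatments. The block fit by sex gave -0.61 untreated (adjusted p 0.128) and -0.47 with cytokines (adjusted p 0.198). In the authors' deposited tables the difference of Ern1 between KO and WT was -0.68 untreated (SE 0.55, FDR 1) and -0.55 with cytokines (SE 0.55, FDR 1), and neither passed. Its cytokine response was 0.03 and 0.20 on the log2 scale in KO and -0.07 and 0.02 in WT.

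Among the 4 transcription factors, Atf4 was lower and Atf3 and Xbp1 were higher in both untreated KO libraries than in both WT libraries, none past an FDR of 0.05. Atf4 had 5304 and 5823 normalized reads in untreated KO islets and 7270 and 6605 in untreated WT islets. Treated, it had 5109 and 6126 in KO islets and 5902 and 6280 in WT islets. The untreated groups did not overlap and the treated groups did. In the authors' deposited tables the difference of Atf4 was -0.32 untreated (SE 0.14, FDR 0.693) and -0.12 with cytokines (SE 0.14, FDR 1). In WT islets Atf4 was lower with cytokines in both mice, by 0.30 and 0.07 on the log2 scale in the recovered reads, and the response of -0.18 did not pass (SE 0.13, FDR 1, authors' deposited table).

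Atf3, a stress-induced factor downstream of ATF4 and of inflammatory signals, had the lowest level of the 50 genes per length. It had 148 and 179 normalized reads in untreated KO islets and 93.1 and 101 in untreated WT islets. Treated libraries held 169 and 180 in KO islets and 129 and 109 in WT islets. All 4 KO libraries lay above all 4 WT libraries. The difference of Atf3 was 0.75 untreated (SE 0.28, FDR 0.403) and 0.55 with cytokines (SE 0.27, FDR 0.758) in the authors' deposited tables, short of the threshold. Stromal, macrophage and lymphocyte markers were also higher in KO than in WT libraries of the same sex and treatment, and their part in the Atf3 values was not tested.

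Xbp1, the target of IRE1α splicing, had 7693 and 8642 normalized reads in untreated KO islets and 7290 and 7350 in untreated WT islets. Under cytokines Xbp1 had 8289 and 8712 in KO islets and 7673 and 7599 in WT islets. The genotypes did not overlap under either treatment, but the difference of Xbp1 was 0.16 in both (p of 0.131 and 0.139, FDR 1) in the authors' deposited tables. Ddit3, which encodes the proapoptotic factor CHOP, had 1000 and 1192 normalized reads in untreated KO islets and 1176 and 1429 in untreated WT islets. With cytokines Ddit3 had 1094 and 1405 in KO islets and 1048 and 1516 in WT islets, and the groups overlapped under both treatments. Untreated, Ddit3 was lower in the KO mouse than in the WT mouse of the same sex, and with cytokines this held only for the male. Its differences of -0.25 and -0.04 did not pass (authors' deposited tables, FDR 1).

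The 12 ATF4 and CHOP targets were mostly lower in KO islets. Negative values were given for 10 of the 12 both untreated, with a median of -0.298, and with cytokines, with a median of -0.218, in the authors' deposited tables, against medians of -0.004 and -0.003 over all genes. Leaving out any 1 mouse gave 10 or 11 of 12 in limma fits. Untreated, both KO libraries lay below both WT libraries for 7 of the 12, Trib3, Chac1, Asns, Psat1, Phgdh, Mthfd2 and Ddit4, and this held for 14 of all 50 genes and for 18.3% of all measured genes. With cytokines the same held for 7 of the 12, Chac1, Asns, Psat1, Phgdh, Shmt2, Mthfd2 and Ddit4, which were also all 7 of the 50, against 14.2% of all measured genes. The untreated and treated cultures came from the same mice, so these counts are not independent. Only Chac1 passed the test.

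Chac1 (ENSMUSG00000027313, chromosome 2, 119351229 to 119354381, plus strand, GRCm38) encodes an enzyme that degrades glutathione. It had 601 and 683 normalized reads in untreated KO islets, against 1476 and 1073 in untreated WT islets. With cytokines it had 652 and 765 in KO islets, against 1337 and 944 in WT islets. All 4 KO libraries lay below all 4 WT libraries, and the WT female was highest under both treatments. The authors' deposited table gave a 1.98-fold lower level in untreated KO islets (log2 -0.99, SE 0.23, p 2.25e-05, FDR 0.0094). With cytokines the difference of -0.68 (SE 0.23, p 0.00335, FDR 0.18) did not pass in the authors' deposited table. In limma fits of recovered reads its untreated difference ranged from -1.20 without the WT male to -0.74 without the WT female. None of those fits called it, with adjusted p-values from 0.0551 in the block fit by sex and 0.429 without a block up to 1 when a mouse was left out.

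Trib3, a pseudokinase that restrains AKT, had 393 and 521 normalized reads in untreated KO islets, against 682 and 731 in untreated WT islets. Under cytokines Trib3 had 469 and 717 in KO islets, against 716 and 873 in WT islets, where the KO male and the WT female were level. The untreated difference of Trib3 was -0.63 (SE 0.25, p 0.0122, FDR 0.535) in the authors' deposited table. Limma gave an adjusted p of 0.0516 in the block fit by sex and 0.468 to 1 in the fits without a block. Trib3 was higher with cytokines in all 4 mice, by 0.25 and 0.46 on the log2 scale in KO and by 0.07 and 0.26 in WT, and neither response passed (0.37, SE 0.27, in KO and 0.17, SE 0.27, in WT in the authors' deposited tables).

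Genes of amino acid and folate metabolism made up much of the rest. Asns, asparagine synthetase, had 3277 and 3815 normalized reads in untreated KO islets, against 4413 and 4340 in untreated WT islets. With cytokines Asns had 3594 and 4014 in KO islets, against 4288 and 4212 in WT islets. The groups did not overlap under either treatment, and the differences of -0.30 (SE 0.13, FDR 0.629) and -0.16 (SE 0.13, FDR 1) did not pass in the authors' deposited tables. Psat1, of serine synthesis, had 479 and 519 normalized reads in untreated KO islets, against 836 and 588 in untreated WT islets. With cytokines Psat1 had 568 and 574 in KO islets, against 796 and 622 in WT islets. The gap was wide for the WT female and narrow for the WT male, and the untreated difference was -0.51 (SE 0.22, p 0.0204, FDR 0.726) in the authors' deposited table. Phgdh, the first enzyme of serine synthesis, had 495 and 548 normalized reads in untreated KO islets and 778 and 567 in untreated WT islets. The mitochondrial folate enzyme Mthfd2 had 1366 and 1638 there in KO islets and 1902 and 1787 in WT islets, while Shmt2 had 666 and 682 in KO islets and 802 and 676 in WT islets and overlapped. For Psat1, Phgdh and Shmt2 the WT female alone stood well apart from the other 3 mice. The sum of the delta-cell markers Sst and Hhex set the same mouse apart, at 839 to 1299 CPM in the KO libraries, 1899 (female) and 834 (male) in WT islets with cytokines and 1975 (female) and 958 (male) in untreated WT islets. The part of delta cells in the values of the ATF4 targets was not tested.

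Ddit4, which encodes the mTORC1 inhibitor REDD1, had 974 and 959 normalized reads in untreated KO islets, against 1198 and 1183 in untreated WT islets. With cytokines Ddit4 had 1023 and 1100 in KO islets, against 1455 and 1156 in WT islets. KO values were lower under both treatments, with a difference of -0.30 (SE 0.16) each time in the authors' deposited tables, with FDR values of 1 untreated and 0.89 with cytokines. The phosphatase subunits that undo eIF2α phosphorylation showed no such gap. Ppp1r15a, the stress-induced subunit GADD34, had 782 and 963 normalized reads in untreated KO islets and 783 and 943 in untreated WT islets. With cytokines Ppp1r15a had 853 and 1051 in KO islets and 809 and 1042 in WT islets, a little higher than untreated in all 4 mice. Its constitutive counterpart Ppp1r15b had 2736 to 3002 normalized reads in the KO libraries and 2951 to 3235 in the WT libraries. Vldlr, a lipoprotein receptor gene, had 2579 to 3077 in the KO libraries and 2871 to 3572 in the WT libraries.

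**Figure D2:**
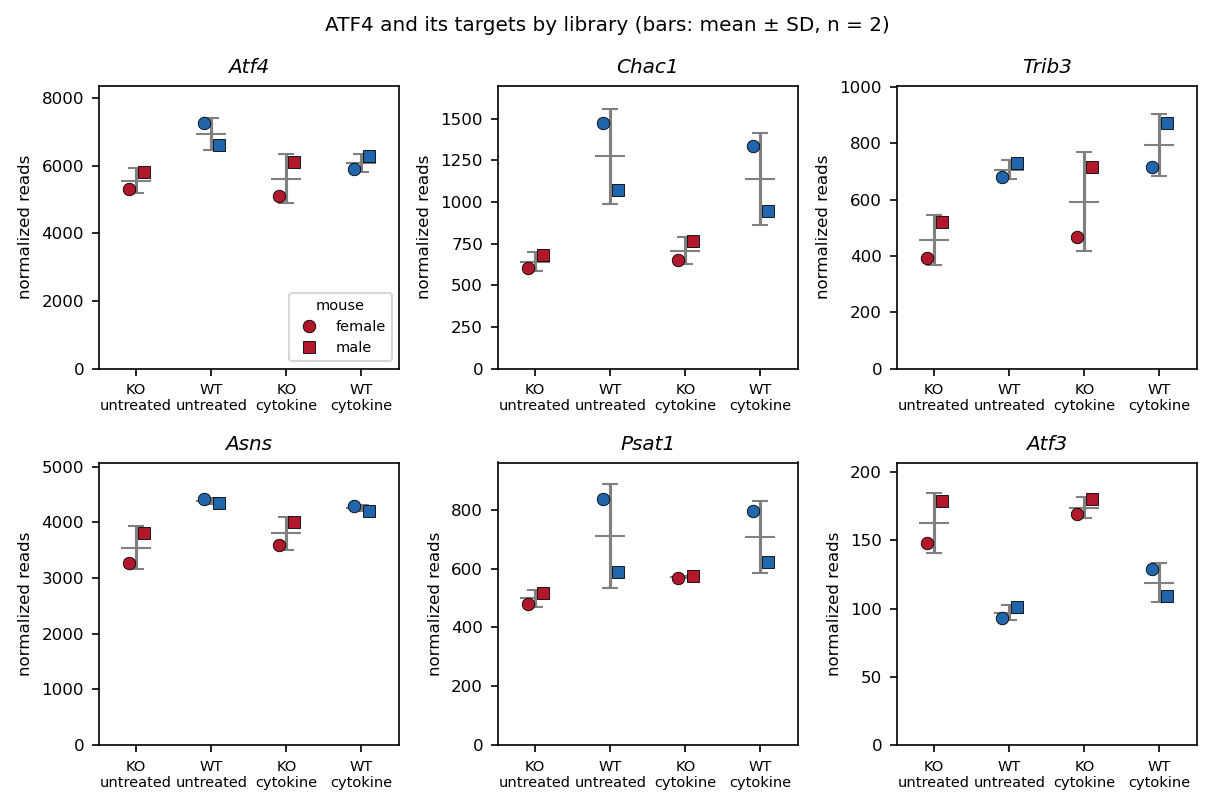
Normalized reads per library (y axis) of Atf4 and 5 further genes of its branch in untreated and cytokine-treated KO and WT islets (x axis); circles are female and squares male mice, and bars give the mean and SD of 2 libraries. KO libraries lie below WT libraries for Chac1, Asns and Psat1 and above them for Atf3 under both treatments.

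Nupr1, a small stress-induced nuclear protein also abundant in acinar cells, stood apart from the other targets. It had 7995 and 2344 normalized reads in KO islets with cytokines and 2260 and 2233 in WT islets with cytokines. Untreated it had 4185 and 2633 in KO islets and 4481 and 2185 in WT islets. The 3 highest values belonged to the 3 libraries with the highest acinar sums (8011, 4700 and 4099 CPM). The difference of 1.20 between KO and WT islets with cytokines had an SE of 0.70 and did not pass (p 0.0851, FDR 1, authors' deposited table). The part of acinar cells in it was not tested.

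The 9 genes grouped as HSP70-type chaperones and co-chaperones, which also include the HSP90-type Hsp90b1, were at similar levels in both genotypes. Between KO and WT islets 0 of the 9 were called and 0 had an unadjusted p below 0.05 under either treatment in the authors' deposited tables, with differences of -0.18 to 0.08 untreated and -0.13 to 0.10 with cytokines. Hspa5, the major ER chaperone BiP, had 47429 and 58662 normalized reads in untreated KO islets and 58113 and 57043 in untreated WT islets. With cytokines Hspa5 had 46668 and 59176 in KO islets and 47328 and 54122 in WT islets. The KO female was low in both cultures, the WT female was low only with cytokines, and the genotypes overlapped. Hsp90b1, the ER form of HSP90, had 36519 and 44187 normalized reads in untreated KO islets and 40210 and 42247 in untreated WT islets. With cytokines Hsp90b1 had 36814 and 44611 in KO islets and 33734 and 42637 in WT islets. Its values followed the mouse in KO islets, where the 2 cultures of each mouse differed by 0.01 on the log2 scale.

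The co-chaperone Dnajb9, a classical XBP1 target, had 11546 and 14401 normalized reads in untreated KO islets and 10114 and 14507 in untreated WT islets. With cytokines Dnajb9 had 10739 and 14489 in KO islets and 7536 and 15983 in WT islets. The female was below the male in every group, most of all in treated WT islets. Sdf2l1, which assists BiP, had 3821 and 4885 normalized reads in untreated KO islets and 4965 and 4895 in untreated WT islets. With cytokines Sdf2l1 had 3926 and 4881 in KO islets and 4786 and 4236 in WT islets. The other members of the role, Hspa13, Hyou1, Dnajb11, Dnajc3 and Dnajc10, showed no difference past the threshold in any comparison.

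With cytokines all 9 chaperones had negative responses in WT islets (median -0.115), and 6 of the 9 in KO islets (median -0.023), in the authors' deposited tables. For Hspa5 the response was -0.18 in WT islets and -0.00 in KO islets (p of 0.285 and 0.98, authors' deposited tables). The WT values of Hspa5 were uneven, at -0.30 in the female and -0.08 in the male. In the WT male Hsp90b1, Dnajb9 and Dnajc10 were not lower, at 0.01, 0.14 and 0.01, while the others of the 9 were lower in both WT mice. None of the 9 responses passed.

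Disulfide and lectin folding genes also gave no call between the genotypes. Between KO and WT islets 0 of the 10 were called and 0 had an unadjusted p below 0.05 in the authors' deposited tables. Ero1lb, the oxidase enriched in the pancreas that recharges disulfide isomerases, had 50854 and 43894 normalized reads in untreated KO islets and 46125 and 41584 in untreated WT islets. With cytokines Ero1lb had 49783 and 44657 in KO islets and 38263 and 42537 in WT islets. The treated genotypes did not overlap, and the difference of 0.22 did not pass (p 0.0891, FDR 1, authors' deposited table). In WT islets 9 of the 10 had negative cytokine responses with a median of -0.115, against 4 of 10 and a median of 0.007 in KO islets, in the authors' deposited tables.

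Creld2, an ER stress-inducible folding factor, had 2175 and 1702 normalized reads in WT islets with cytokines, against 2657 and 2081 in untreated WT islets. In KO islets it had 1704 and 2097 with cytokines, against 1802 and 2155 untreated. Each WT mouse showed the same response, of -0.29 on the log2 scale, while the KO mice showed -0.08 and -0.04. The WT response of -0.29 had an unadjusted p of 0.0105 and an FDR of 1 in the authors' deposited table (SE 0.11). Limma with a block by mouse gave an adjusted p of 0.115. Pdia3, Pdia4, Pdia6, P4hb, Calr and Manf, disulfide isomerases, a lectin chaperone and an ER-resident survival factor, were lower in both treated WT libraries than in both untreated ones, with responses of -0.22 to -0.07 in the authors' deposited table. Creld2 itself showed no such separation, since its treated WT female lay above the untreated WT male, and neither did Canx, Ero1l and Ero1lb.

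The clearest cytokine response among the 50 genes was in ERAD, the removal of misfolded proteins from the ER. All 10 genes of ERAD and translocation had negative responses in WT islets, with a median of -0.184, and 8 of 10 in KO islets, with a median of -0.075, in the authors' deposited tables. Syvn1 (ENSMUSG00000024807, chromosome 19, 6046576 to 6053712, plus strand, GRCm38), which encodes the ERAD ubiquitin ligase HRD1, had 2470 and 2342 normalized reads in WT islets with cytokines, against 3499 and 3096 in untreated WT islets. In KO islets it had 2469 and 3048 with cytokines, against 2994 and 3451 untreated. Treated values were lower in all 4 mice, by 0.28 and 0.18 on the log2 scale in KO and by 0.50 and 0.40 in WT. The WT groups did not overlap and the KO groups did.

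In the authors' deposited tables the response of Syvn1 was -0.45 in WT islets (SE 0.12, p 0.000151, FDR 0.308) and -0.23 in KO islets (SE 0.12, p 0.0557, FDR 1), and neither passed. Limma with a block by mouse gave -0.45 (adjusted p 0.0376) in WT islets, a 1.37-fold lower level, and -0.23 (adjusted p 0.26) in KO islets. Voom weights gave an adjusted p of 0.034 in WT islets, and fits without the block 0.941 to 1. The acinar sum was lower with cytokines in both WT mice and in the KO male and higher in the KO female, while Syvn1 was lower in all 4 mice, and the part of acinar cells in these values was not tested. The KO response minus the WT response was 0.22 (SE 0.17, adjusted p 1), so a different response was not shown.

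Herpud1, which gathers ERAD factors at the ER membrane, had 4619 and 4578 normalized reads in WT islets with cytokines, against 6708 and 5490 in untreated WT islets. In KO islets it had 4069 and 5406 with cytokines, against 4813 and 5917 untreated. It was lower with cytokines in all 4 mice. The response of Herpud1 was -0.40 in WT islets (SE 0.14, p 0.00483, FDR 1) and -0.18 in KO islets (SE 0.14, p 0.189, FDR 1) in the authors' deposited tables, and limma with a block by mouse gave adjusted p-values of 0.105 and 0.527.

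Derl3, a derlin of secretory cells that helps draw proteins out of the ER, had 428 and 814 normalized reads in WT islets with cytokines, against 602 and 1065 in untreated WT islets. In KO islets it had 808 and 1199 with cytokines, against 879 and 1357 untreated. The male library was above the female in every group, the treated culture below the untreated in every mouse, and the KO mouse above the WT mouse of the same sex and treatment. The genotype difference with cytokines was 0.69 (SE 0.37, FDR 0.938) in the authors' deposited table and did not pass. In the block fit by sex, limma gave 0.74 (adjusted p 0.0155) and voom weights an adjusted p of 0.0222, and fits without the block gave 0.19 to 0.997. The value was 0.27 without the WT female and 1.20 without the WT male. Acinar sums were higher in KO than in WT libraries of the same sex and treatment, and their part in the Derl3 difference was not tested. Within WT islets Derl3 was lower with cytokines by 0.44 in the block fit, short of the threshold (adjusted p 0.0673).

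**Figure D3:**
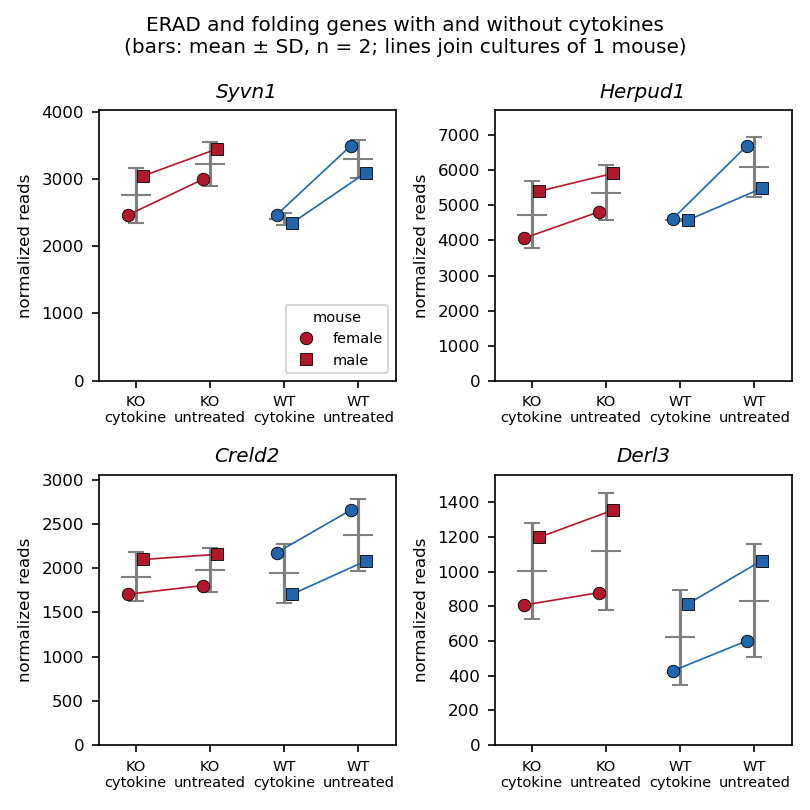
Normalized reads (y axis) of Syvn1, Herpud1, Creld2 and Derl3 in treated and untreated KO and WT islets (x axis); lines join the cultures of 1 mouse, circles are female and squares male, and bars give the mean and SD of 2 libraries. The treated culture lies below the untreated culture in all 4 mice for each gene.

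The partner of HRD1, Sel1l, and the ERAD genes Selenos and Derl2 were also lower with cytokines in all 4 mice. In WT islets their responses were -0.18, -0.23 and -0.13 in the authors' deposited table, and none passed. Sec61b, a subunit of the translocation channel, had 3335 and 3729 normalized reads in WT islets with cytokines, against 3940 and 4104 in untreated WT islets. In KO islets Sec61b had 3299 and 3862 with cytokines, against 3391 and 3604 untreated. The WT groups were apart and the KO groups overlapped, and the difference of the responses was 0.22 (SE 0.20, adjusted p 1). Edem1, Derl1 and Ufm1 had WT responses of -0.10, -0.12 and -0.08 in the authors' deposited table. Wfs1, the ER membrane protein mutated in Wolfram syndrome, had 5097 and 5050 normalized reads in WT islets with cytokines, against 5650 and 5773 in untreated WT islets. In KO islets Wfs1 had 4560 and 5646 with cytokines, against 4999 and 5807 untreated, lower with cytokines in all 4 mice, and its WT response of -0.17 (SE 0.14) did not pass in the authors' deposited table.

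Counted over the list, both treated WT libraries lay below both untreated WT libraries for 17 of the 50 genes, against 10.9% of all measured genes, and above them for 2, Xbp1 and Atf3, against 11.3%. In KO islets the same counts were 2 lower, against 14.6% of all measured genes, and 2 higher, against 15.3%. Lower with cytokines in both WT mice were 28 of the 50 (25.9% of all measured genes), in both KO mice 16 (30.9%) and in all 4 mice 13 (12.5%). Higher in all 4 mice were 5, Xbp1, Atf3, Trib3, Ppp1r15a and Vldlr, against 12.4% of all measured genes. No gene of these counts passed the authors' threshold.

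The responses of KO and WT islets were compared through the difference of the deposited fold changes. Of the 50 genes 0 passed, as did 0% of all genes, and 0 of the 50 had an unadjusted p below 0.05, against 0.22% of all genes. Limma on the recovered reads also called 0 of the 50, and at an unadjusted p below 0.05 it put 7 of them in the block fit (4.04% of all genes) and 0 in the fit without a block (0.631% of all genes). The KO response was above the WT response for 43 of the 50, with a median difference of 0.127, and 7 were below, against 50.3% of all genes. Of the 18 acinar genes 17 were above and 1 was below, with a median of 1.53. Of the 9 beta-cell genes 7 were above and 2 below, with a median of 0.04. Below were 10 of 10 endothelial, 9 of 10 stromal and 8 of 10 macrophage genes. The part of these cells in the count of the 50 genes was not tested. The untreated WT libraries also enter the counts of untreated KO against WT islets and of the WT response. These counts are therefore not independent. Higher with cytokines in both KO mice and lower in both WT mice were 6 of the 50, Chac1, Asns, Dnajb11, Pdia3, Pdia6 and Calr, against 4.23% of all measured genes, and the opposite pattern held for 0, against 4.15%. For Pdia3, Pdia6 and Calr the KO values were only 0.01 to 0.06 on the log2 scale. Without the WT female the KO response was below the WT response for 14 of the 50. The smallest p-values belonged to Creld2 (0.23, SE 0.16, p 0.151), Syvn1 (p 0.181), Chac1 (0.30, SE 0.23, p 0.195) and Sec61b (p 0.276).

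Read against their promoters, the 12 genes with an ERSE or ERSE-II all had negative cytokine responses in WT islets, with a median of -0.148, and 7 of 12 in KO islets, with a median of -0.004, in the authors' deposited tables. Of the 32 matched genes with neither, 23 were negative in WT islets, with a median of -0.077. The 32 include ATF4 targets, transcription factors and sensors, while the 12 are all chaperone, folding or ERAD genes. In those roles as a whole 9 of 9, 9 of 10 and 10 of 10 genes were negative in WT islets. The part of role in this contrast was not tested. Outside the list 16 measured genes carried an ERSE or ERSE-II, and 9 of them were negative in WT islets, with a median of -0.023. The negative WT responses of the 12 were thus not seen to the same extent in other genes with the same letters, and no test was made of this. Syvn1, Derl3, Herpud1 and Creld2, whose windows are printed above, had the 4 smallest p-values of the 50 in WT islets in the block fit. Windows were printed for genes on which the results turn, so this overlap tests nothing about the motifs.

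A wider list of the same pathways, with 110 measured genes beyond the 50, was counted in the same comparisons. Among 36 genes of the ATF4 and amino acid response, which include tRNA synthetases and amino acid transporters, 31 had negative values in untreated KO islets relative to WT, with a median of -0.164, against 51% of all genes, and 28 with cytokines, with a median of -0.109, against 50.8%, in the authors' deposited tables. Of these the authors called 0 untreated, against 0.41% of all genes, and 1 with cytokines, Cth, which was higher, against 0.998%. Cth, an enzyme of cysteine synthesis, had 76.1 and 89.2 normalized reads in KO islets with cytokines, against 17.4 and 23.3 in WT islets with cytokines. Untreated it had 59.6 and 84.3 in KO islets, against 34.6 and 21.8 in WT islets, and the 4 KO libraries lay above the 4 WT libraries. The difference of Cth was 2.01 with cytokines (SE 0.48, FDR 0.00657) and 1.36 untreated (SE 0.48, FDR 0.325) in the authors' deposited tables, opposite in direction to Chac1. Among 59 further XBP1 and ATF6 targets, 57 had negative cytokine responses in WT islets, with a median of -0.102, against 49.1% of all genes, and 41 in KO islets, with a median of -0.036, against 49.7%, in the authors' deposited tables. Of the 59 the authors called 0 in WT islets (0.0122% of all genes) and 0 in KO islets (0.0429%). The 15 kinases, substrates and further factors of the integrated stress response had 0 calls in any comparison, with medians between -0.066 and -0.005.

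Mice of the same genotype also differed from each other. The male library was above the female library in both KO groups for 46 of the 50 genes, against 36.9% of all measured genes. In all 4 groups this held for 25 of the 50 (19.4% of all measured genes), and the reverse for 1, Nupr1 (19.8%). Ern1 gave a male minus female value of 0.56 and 0.39 on the log2 scale in treated and untreated KO islets and 1.09 and 1.00 in treated and untreated WT islets. Derl3 gave 0.57 and 0.63 in KO and 0.93 and 0.82 in WT. Dnajb9 gave 0.43 and 0.32 in KO and 1.08 and 0.52 in WT, and Trib3 gave 0.61 and 0.40 in KO and 0.29 and 0.10 in WT. Acinar, alpha-cell, delta-cell and stromal marker sums were lower in the male than in the female library of each group, and their part in these gaps was not tested. Chac1 differed by genotype in this respect, with the male above the female in KO islets (0.23 and 0.18) and below it in WT islets (-0.50 and -0.46). With 1 mouse of each sex per genotype, sex and the individual mouse cannot be told apart.

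**Figure D4:**
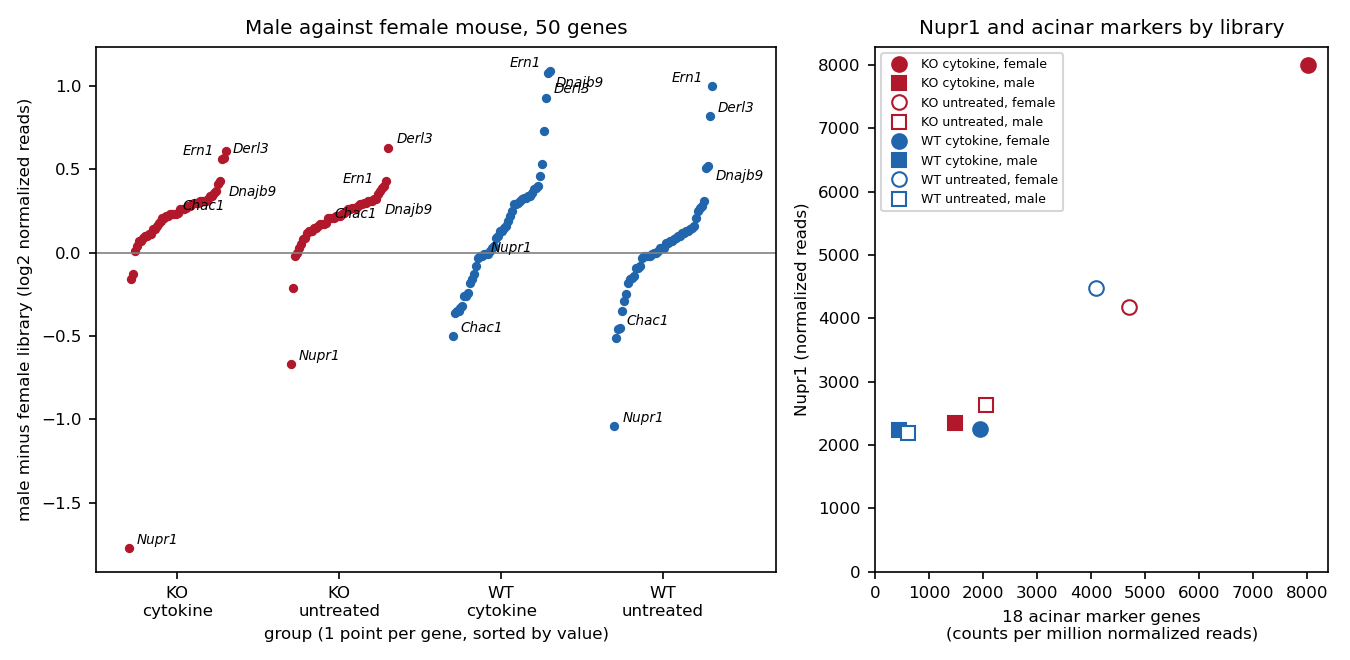
Left, male minus female library in log2 normalized reads (y axis) for each of the 50 genes in 4 groups (x axis); right, normalized reads of Nupr1 (y axis) against the summed acinar markers (x axis) in 8 libraries. For 46 of the 50 genes the points of both KO groups lie above 0, and the 3 libraries with most acinar reads have most Nupr1.

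Levels of the 50 genes spanned a wide range when expressed per kilobase of exon. P4hb, a disulfide isomerase, was highest at 12863 normalized reads per kilobase over the 8 libraries, followed by Hspa5 (12667), Calr (10666), Hsp90b1 (9950), Pdia3 (8502) and Ero1lb (6721). P4hb and Hspa5 did not differ in order beyond their spread, since Hspa5 led P4hb in untreated WT islets (13615 and 13550 per kilobase). Chaperones and folding enzymes filled the top of the order. The transcription factors Atf4 and Xbp1 stood at 2567 and 2434 per kilobase, the sensor Ern1 at 1962, and Atf6 and Eif2ak3 lower at 770 and 562. At the low end were Trib3 (300), Vldlr (295), Phgdh (242), Shmt2 (225), Psat1 (146) and Atf3 (64.3), most of them ATF4 targets. The genes of ERAD and translocation ranged from 365 for Derl2 to 2878 for Sec61b.

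**Figure D5:**
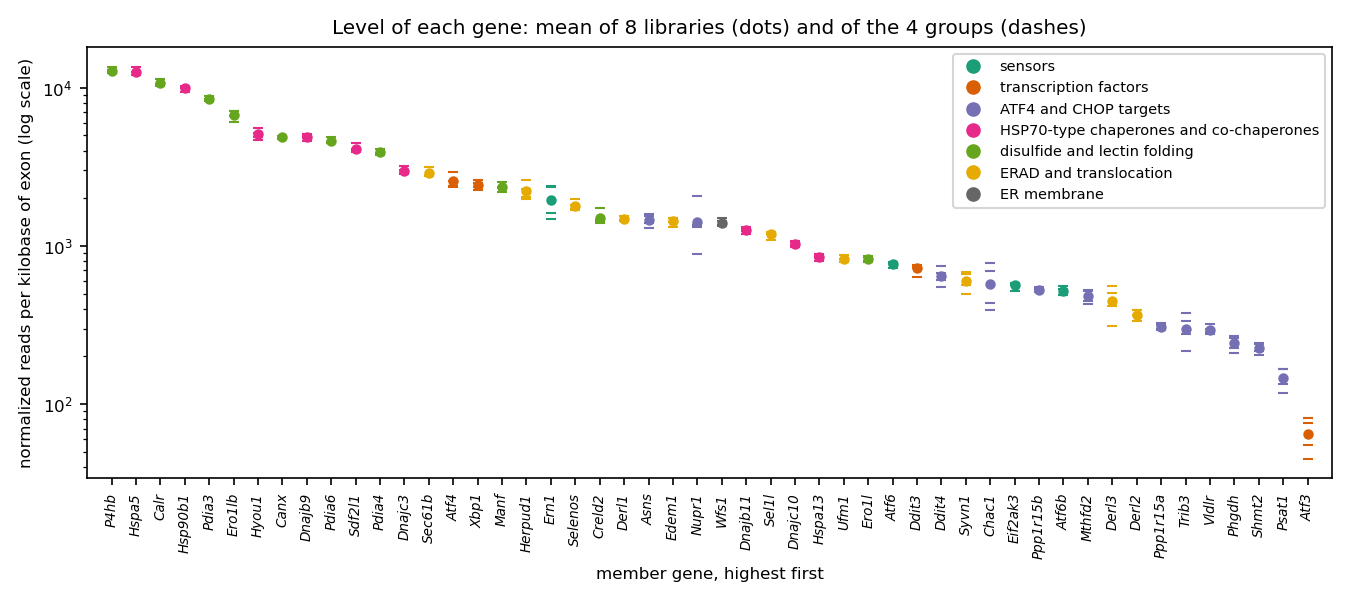
Normalized reads per kilobase of exon (y axis, log scale) for each of the 50 genes (x axis, highest first); dots are means of 8 libraries, dashes the means of the 4 groups, and colours the roles. P4hb and Hspa5 are highest and Atf3 lowest, and the dashes spread most for Nupr1, Chac1, Atf3 and Derl3.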

How the data were processed

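Tools named in the submitters' processing notes are HISAT2, HTSeq and DESeq2, and the build is GRCm38; versions, roles and strand were not stated. The deposited data are 4 comparison tables. Per the file headers, the authors' signal columns hold group means of read counts after division by a size factor for each library. The authors deposited a log2 fold change, a score (a Wald statistic) and a p-value with its FDR for each gene from their own model. A gene was called at an FDR below 0.05, the main test. Standard errors are the log2 fold change over the score. Whole reads per library were recovered from the deposited group means as sums of 2 whole numbers times fixed steps, which gave 16319 of 16333 genes (99.91%). The largest relative miss of the mean over all libraries was 5.5e-15. Limma 3.58.1 (R 4.3.3) was fitted to log2 of normalized reads plus a pseudocount of 1 with a mean-variance trend, with and without the mouse (or, between genotypes, its sex) as a block, after a test on simulated data. Deviations of the 2 cultures of a mouse correlated at 0.811 (KO) and 0.829 (WT) over 12356 genes, with pairing from sex and from labels that give both cultures to each mouse. The interaction test divided the difference of the deposited fold changes by its standard error, from the squared errors of both. Adjustment ran over all genes (Benjamini-Hochberg).

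The members and lists were chosen with earlier results of these data known. Genes given in full were those called by the authors or in the block fit, the 4 smallest p-values per comparison and a fixed set of central genes. The rule named 24 genes, and the others with values per library, such as Phgdh, Mthfd2, Shmt2, Nupr1 and the wider gene Cth, were added after their values were seen. Promoters are from RefSeq (GRCm38.p6), and gene positions and exon lengths from GENCODE M21. With 2 libraries per group, and 1 mouse per library pair, the error of each value is large.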

Additional observations from a re-analysis of the deposited data

Results flagged for a closer look

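For 6 genes the cytokine response was positive in both KO mice and negative in both WT mice, and the difference between the genotypes was not established by a test, since none passed at an FDR of 0.05. The KO response minus the WT response from the authors' deposited fold changes was 0.30 for Chac1, 0.15 for Asns, 0.19 for Dnajb11, 0.13 for Pdia3, 0.15 for Pdia6 and 0.14 for Calr on the log2 scale. These are the 6 of 50 genes with this pattern, against 4.23% of all measured genes. The responses of the KO female and male were 0.12 and 0.16 for Chac1, 0.13 and 0.07 for Asns and 0.04 and 0.04 for Dnajb11. They were 0.02 and 0.05 for Pdia3, 0.01 and 0.03 for Pdia6 and 0.01 and 0.06 for Calr. A rise of these last genes in KO islets was not shown, with deposited responses of 0.03 (SE 0.12), 0.02 (SE 0.13) and 0.03 (SE 0.14).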

How the results depend on the processing

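Of 50 genes, the counts called under other settings were small throughout. For KO over WT untreated the count of 1 became 0 with limma, with limma and upper-quartile scaling, with a pseudocount of 5, with the replicate block, with voom weights and the block, and in the fits without 1 mouse (0 to 0); the cause was not tested. The replicate block gave 1 called gene for the WT cytokine response and 1 for KO over WT with cytokines, as did voom weights, a setting added after the data were seen, against 0 in the authors' test, and apart from the loss of Chac1 it changed no other count of calls. Fits that leave out a mouse gave 15 to 41 lower genes for KO over WT with cytokines (23 in the main result), 7 to 14 lower genes for the difference of responses, and 1 to 3 lower ATF4 and CHOP targets for the KO cytokine response; with a mouse left out its group rests on 1 library, assumed to vary like the others. An FDR of 0.1 and a filter at a mean of 100 kept the counts of calls. The count of 23 of 50 became a majority without the KO male (41) and without the WT female (37). None of the 20 fold changes of single genes that were refitted changed sign. The planned count models (edgeR and DESeq2) on recovered reads were not run, because the group means do not meet the accepted form of whole reads, and upper-quartile scaling stood in for TMM. Depth limits Atf3 most, at 93.1 to 180 normalized reads per library.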
